A study of Homo sapiens with 6 samples.

Results

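The genes described here are *CXCL1*, *CXCL2*, *CXCL3*, *CXCL5*, *CXCL6* and *CXCL8*, the ELR CXC chemokines that call neutrophils into tissue. They were chosen by family and because their transcripts were known from these libraries to be lower after treatment, so the difference between the groups is described and not tested. They are 6 of the 63241 genes in the expression table, and 5 of the 6 passed the filter of at least 1 TPM in at least 3 libraries, *CXCL5* being the exception. TPM scales the transcripts of each library to a fixed total, corrected for transcript length, so each level is a share of its library. Levels are compared between genes and between libraries on that scale, where a change in abundant transcripts moves the other shares.

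The cells were HT−29, a human colorectal adenocarcinoma line labelled wild type and enterocyte in every sample. The Control group received buffer, and the A904 group received recombinant Amuc_0904 at 0.5 μM, both for 72 h, with 3 RNA-seq libraries in each group. Amuc_0904 is an outer membrane protein of the gut bacterium *Akkermansia muciniphila*, here carrying His and FLAG tags and purified from *E. coli*. The labels do not say whether the libraries came from separate cultures, so p values measure only the spread between these libraries, which may be technical. Sequencing depth is unknown, because TPM values carry no read counts.

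ELR CXC chemokines are small secreted proteins named for a glutamate-leucine-arginine motif ahead of their paired cysteines. They bind the receptors CXCR1 and CXCR2, carried mainly by neutrophils, and draw these cells along a gradient. Epithelial cells of the gut make them on exposure to microbial products, IL-1, TNF or IL-17, largely through the transcription factor NF-κB, and their mRNAs are short-lived and cleared by dedicated RNA-binding proteins and RNases.

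The promoters of the 6 genes share a short sequence, which is why they are shown beside the levels. Each line below gives bases −120 to −21 relative to the transcription start, 5′ to 3′ on the strand of the gene, from RefSeq on GRCh38.p14, and the capitals mark GGGAATTTCC or, in *CXCL8*, GGAATTTCC, both forms of the κB site that NF-κB binds. *PPBP*, the other ELR gene of the same cluster, is shown for contrast. The windows are chr4:73869273-73869372 on the plus strand for *CXCL1*, chr4:74099216-74099315 on the minus strand for *CXCL2*, chr4:74038710-74038809 on the minus strand for *CXCL3*, chr4:73998698-73998797 on the minus strand for *CXCL5*, chr4:73836558-73836657 on the plus strand for *CXCL6*, chr4:73740449-73740548 on the plus strand for *CXCL8* and chr4:73988211-73988310 on the minus strand for *PPBP*.
CXCL1: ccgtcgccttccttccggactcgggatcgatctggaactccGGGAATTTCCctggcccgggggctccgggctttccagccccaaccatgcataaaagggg
CXCL2: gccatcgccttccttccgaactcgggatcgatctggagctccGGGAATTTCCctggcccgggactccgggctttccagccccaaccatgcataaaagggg
CXCL3: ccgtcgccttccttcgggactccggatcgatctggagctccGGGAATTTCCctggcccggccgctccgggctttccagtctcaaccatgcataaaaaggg
CXCL5: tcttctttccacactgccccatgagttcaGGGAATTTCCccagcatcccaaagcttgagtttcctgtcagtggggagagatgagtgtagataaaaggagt
CXCL6: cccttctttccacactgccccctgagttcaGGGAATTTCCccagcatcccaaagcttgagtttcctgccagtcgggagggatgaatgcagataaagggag
CXCL8: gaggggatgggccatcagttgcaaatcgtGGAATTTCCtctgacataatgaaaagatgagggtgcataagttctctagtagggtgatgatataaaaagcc
PPBP: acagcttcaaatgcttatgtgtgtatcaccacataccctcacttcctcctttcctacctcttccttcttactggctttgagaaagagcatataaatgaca

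The letters GGAATTTCC occurred in 6 of the 6 promoters when 250 bases before to 50 bases after the start were searched on both strands, against 162 of all 35116 promoters in the RefSeq table (0.461%). In every member the match read along the strand of the gene. It began at −78 in *CXCL1* and *CXCL3*, −77 in *CXCL2*, −90 in *CXCL5*, −89 in *CXCL6* and −91 in *CXCL8*. A match beginning between −100 and −70 was present in 28 promoters (0.0797% of all), and 6 of these 28 were the members. These bounds enclose the starts seen in the members, so the presence of all 6 was fixed in advance. Nothing is read from that share. A further G stood ahead of these letters in 5 of the 6, all but *CXCL8*. TGANTCA, the site of AP-1, was found in *CXCL8* alone among the members, at −137, just outside the stretch shown, and in 7.71% of all promoters. The exact TATA box letters TATAAA were found in *CXCL8* at −31 and in 11.5% of all promoters. Near variants were not searched, so the other members are not shown to lack a TATA box. *PPBP* held TATAAA at −31 and did not hold GGAATTTCC. GGAATTTCC, TGANTCA and TATAAA do not overlap each other in any member. These matches describe the letters in the window and say nothing of which factor was bound in HT−29 cells.

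The promoters were of 3 kinds by sequence. Over 89 bases aligned on the shared letters without gaps, *CXCL1* and *CXCL3* were 92.1% identical and *CXCL5* and *CXCL6* were 93.3% identical. *CXCL2* was nearest to *CXCL1*, at 75.3%, and next to *CXCL3*, at 70.8%. The spacing of *CXCL2* differs from theirs after the letters, so these ungapped values understate its likeness to both. *CXCL8* stood apart, with between 24.7% and 34.8% identity to the other members. The levels of the 6 transcripts, given next, were lower after Amuc_0904 in all 3 kinds.

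*CXCL1* and *CXCL8* were the most abundant members. *CXCL1*, a chemokine that signals through CXCR2, was at 45.17, 44.31 and 44.68 TPM in Control replicates 1 to 3 and at 1.73, 3.67 and 4.03 TPM in the A904 replicates. The means were 44.7 ± 0.431 TPM (SD, n = 3) and 3.14 ± 1.24 TPM (SD, n = 3), a ratio of 14.2 between Control and A904. Each treated library was far below the whole control range, and the treated libraries differed among themselves more than the controls did in proportion, with coefficients of variation of 39.4% and 0.965%. On the log2(TPM + 1) scale the difference was −3.51 with a standard error of 0.22, the third lowest among the 14333 genes that passed the filter.

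*CXCL8*, also called interleukin 8 and a ligand of both CXCR1 and CXCR2, was at 40.27, 43.37 and 40.56 TPM in the controls. In the A904 libraries it was at 2.37, 7.20 and 5.31 TPM. The means of 41.4 ± 1.71 and 4.96 ± 2.43 TPM (SD, n = 3) gave a ratio of 8.35, and the log2(TPM + 1) difference was −2.92 with a standard error of 0.29. Its treated libraries were the most uneven of the 6 genes, with a coefficient of variation of 49.1%, replicate 1 lowest and replicate 2 highest, yet the groups did not overlap.

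*CXCL6* and *CXCL3* formed a middle tier. *CXCL6*, another ligand of both receptors and long known from granulocytes and epithelium, was at 13.37, 11.86 and 11.21 TPM in the controls and at 1.27, 1.46 and 0.77 TPM after Amuc_0904. Its means were 12.1 ± 1.11 and 1.17 ± 0.356 TPM (SD, n = 3), a ratio of 10.4 and a log2(TPM + 1) difference of −2.61 with a standard error of 0.14. *CXCL3*, a CXCR2 ligand, was at 6.69, 11.89 and 9.14 TPM in the controls and at 1.19, 1 and 1.55 TPM after Amuc_0904. This gene had the widest control spread, with a coefficient of variation of 28.2%, and even its lowest control was above every treated library. Its means were 9.24 ± 2.60 and 1.25 ± 0.279 TPM (SD, n = 3), a ratio of 7.41 and a log2(TPM + 1) difference of −2.16 with a standard error of 0.20.

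*CXCL2* and *CXCL5* were the least abundant. *CXCL2*, a CXCR2 ligand close in sequence to *CXCL1*, was at 4.51, 5 and 5.74 TPM in the controls and at 0.42, 0.85 and 0.52 TPM after Amuc_0904. Its means were 5.08 ± 0.619 and 0.597 ± 0.225 TPM (SD, n = 3), a ratio of 8.52 and a log2(TPM + 1) difference of −1.93 with a standard error of 0.15. It reached 1 TPM in no A904 library and passed the filter through the controls alone. *CXCL6* also needed the controls to pass, being under 1 TPM in A904 replicate 3. *CXCL5*, the epithelial chemokine known as ENA-78, did not reach 1 TPM in any library: it was at 0.75, 0.63 and 0.51 TPM in the controls and at 0.05, 0.09 and 0.12 TPM after Amuc_0904. The means were 0.63 ± 0.12 and 0.0867 ± 0.0351 TPM (SD, n = 3), a ratio of 7.27. Its log2(TPM + 1) difference was −0.58 with a standard error of 0.10 in the fit without a filter. This small value mostly reflects the added 1, which is larger than any level of this gene. The ratio of *CXCL5* was the lowest of the members but close to the 7.41 of *CXCL3*.

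All 6 members were lower in every A904 library than in every Control library. Over the tested genes 7.59% showed the same order, and over all genes above 0 in any library 5.47% did, but the choice of the members used this contrast, so nothing is read from the comparison. Of the tested genes, 20 (0.14%) had a log2(TPM + 1) difference of −1.5 or lower, 5 of them members. With 3 libraries in each group an exact permutation test of a single gene could not be below 0.1. In bulk RNA, fewer cells making a chemokine and less of its mRNA in each cell cannot be told apart.

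**Figure D1:**
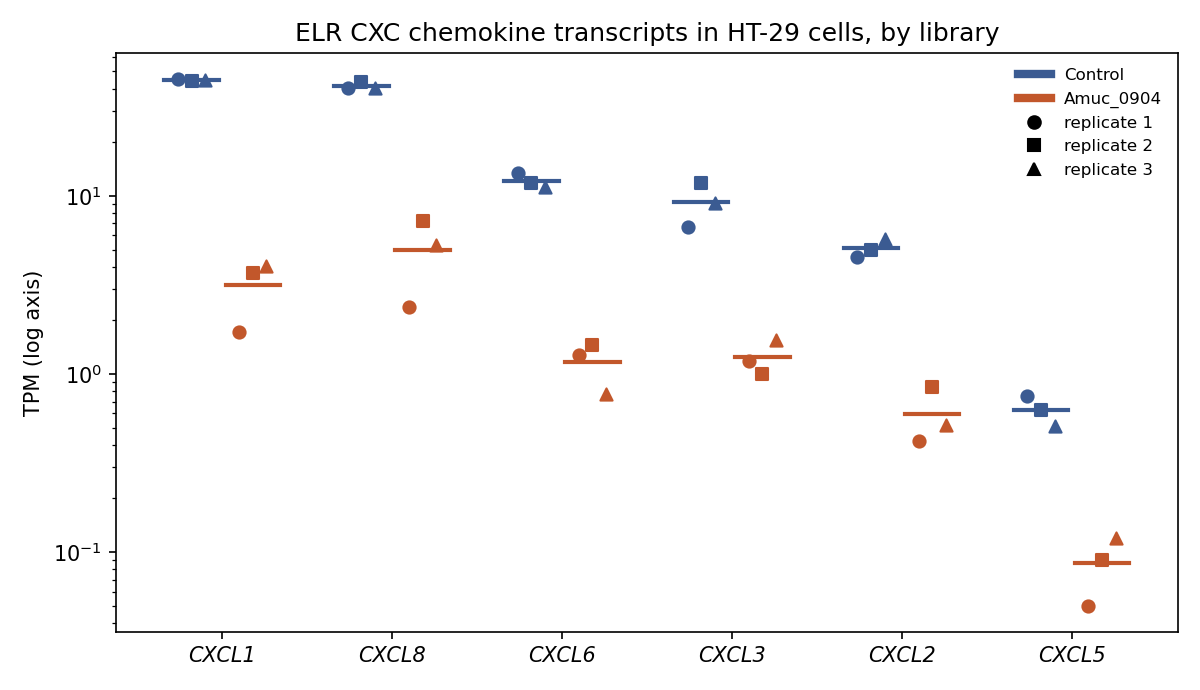
TPM of each ELR CXC chemokine on a log axis, with 1 point per library, symbols by replicate number and a bar at the mean of 3 libraries. All Amuc_0904 points of a gene lie below all its Control points, for example 1.73 to 4.03 against 44.31 to 45.17 TPM for *CXCL1*.

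As a share of the control mean, the remaining transcript was 7.03% for *CXCL1*, 9.60% for *CXCL6*, 11.7% for *CXCL2*, 12.0% for *CXCL8*, 13.5% for *CXCL3* and 13.8% for *CXCL5*. The order of these shares was not stable over libraries. In A904 replicate 1 *CXCL1* was the lowest, at 3.87% of its control mean, and in replicate 3 *CXCL6* was, at 6.34%. In replicate 2 the shares ran from 8.21% for *CXCL1* to 17.4% for *CXCL8*. The members therefore cannot be ranked beyond the spread of the libraries by how much transcript was left.

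The summed level of the 6 transcripts was 110.76, 117.06 and 111.84 TPM in the controls and 7.03, 14.27 and 12.30 TPM after Amuc_0904. The means were 113.2 ± 3.37 and 11.2 ± 3.74 TPM (SD, n = 3), a ratio of 10.1. Replicate 1 of A904 had the lowest sum, and it was the lowest of the treated libraries for *CXCL1*, *CXCL2*, *CXCL5* and *CXCL8*, 4 of the 6 genes. *CXCL3* was lowest in replicate 2 and *CXCL6* in replicate 3.

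The makeup of the sum shifted within these lower totals. *CXCL1* made up 40.8%, 37.9% and 39.9% of the sum in the controls and 24.6%, 25.7% and 32.8% after Amuc_0904, ranges that did not overlap. *CXCL8* made up 36.4%, 37.0% and 36.3% in the controls and 33.7%, 50.5% and 43.2% after Amuc_0904, ranges that did overlap. *CXCL1* exceeded *CXCL8* in each control, with ratios of 1.12, 1.02 and 1.10. The order was the other way round in each A904 library, where the ratios were 0.730, 0.510 and 0.759. *CXCL3* went from a mean share of 8.12 ± 2.06% to 12.2 ± 4.97% and *CXCL6* from 10.7 ± 1.15% to 11.5 ± 6.01% (SD, n = 3), both within the spread of the treated libraries. *CXCL2* and *CXCL5* were minor in both groups, with mean shares of 4.49% and 0.557% in the controls and 5.39% and 0.773% after Amuc_0904.

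In the controls the order of levels was *CXCL1*, *CXCL8*, *CXCL6*, *CXCL3*, *CXCL2* and *CXCL5*. Only *CXCL6* and *CXCL3* overlapped among neighbours in that order, at 11.21 to 13.37 and 6.69 to 11.89 TPM. After Amuc_0904 the ranges of *CXCL8* and *CXCL1* overlapped, those of *CXCL3* and *CXCL6* overlapped, and those of *CXCL6* and *CXCL2* overlapped, with *CXCL5* below all of them. *CXCL6* and *CXCL5*, whose promoters are near copies, were at very different levels: *CXCL6* was 17.8, 18.8 and 22.0 times as high per length in the controls and 25.4, 16.2 and 6.42 times as high in the A904 libraries.

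**Figure D2:**
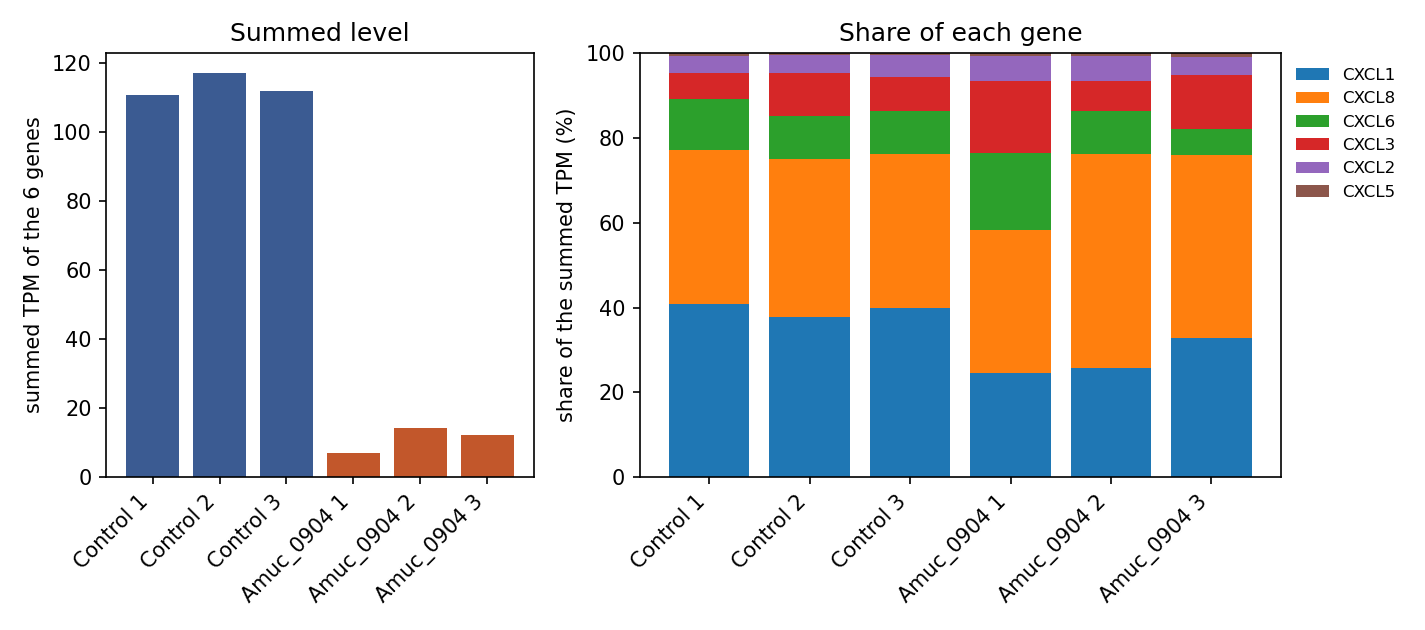
Left, summed TPM of the 6 genes in each library, from 0. Right, the percent of that sum from each gene. The sum is between 110.76 and 117.06 TPM in the controls and between 7.03 and 14.27 TPM after Amuc_0904, and the *CXCL1* share is lower in each treated library.

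A904 replicate 1 lay nearer to the controls than the other treated libraries over the whole transcriptome, while its chemokine sum was the lowest of the 3. The median absolute deviation from the control mean over the tested genes, on the log2(TPM + 1) scale, was 0.0998 in A904 replicate 1, 0.155 in replicate 2 and 0.160 in replicate 3, against 0.0526 to 0.0545 in the controls. The first principal component, holding 35.5% of the variance, placed A904 replicate 1 at −4.79, between the controls at −13.04 to −12.42 and the other treated libraries at 20.4 and 22.8. On the second component A904 replicate 1 stood apart from all other libraries, at 22.7. There the controls were at −15.3 to 2.78 and the other treated libraries at −3.95 and −1.57. The median difference of the members from their control means was −2.36, −2.35 and −2.37 in A904 replicates 1, 2 and 3, and the lowest member, *CXCL1* in each, was at −4.07, −3.29 and −3.18. Mitochondrially encoded transcripts took 12.8% to 13.5% of TPM in the controls and 12.95%, 10.6% and 11.1% in the A904 replicates. Without A904 replicate 1 the ratio of the summed chemokine level between Control and A904 was 8.52.

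Some members share sequence that short reads cannot always assign. Of all windows of 50 bases in the GENCODE transcripts of *CXCL2*, 12.5% occurred also in another member, 8.99% in *CXCL3* and 3.88% in *CXCL1*. The shared part was 6.01% for *CXCL3* and 4.81% for *CXCL1*. Levels within this trio are uncertain for this reason. The shares of windows do not measure by how much, because the genes differ in level. *CXCL5*, *CXCL6* and *CXCL8* shared 0% of such windows with the other members.

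The 6 genes lie within 359 kb on chromosome 4, at positions given here on GRCh38 from GENCODE release 29. *CXCL8* (73740506 to 73743716), *CXCL6* (73836497 to 73849064) and *CXCL1* (73869393 to 73871242) are on the plus strand. *CXCL5* (73995642 to 73998779), *CXCL3* (74036589 to 74038807) and *CXCL2* (74097035 to 74099293) follow on the minus strand. The low *CXCL5* and the abundant *CXCL1* are thus adjacent members of the cluster.

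Between the outermost members lie 3 further protein-coding genes, and all are platelet or ELR-related chemokine genes that were barely detected. *PPBP*, the precursor of the platelet chemokine NAP-2, was at 0, 0 and 0.06 TPM in the controls and listed at 0 in each A904 library. *PF4*, platelet factor 4, was at 0, 0.33 and 0.12 TPM in the controls and listed at 0 after Amuc_0904. *PF4V1*, its close copy, was listed at 0 in the controls and at 0, 0.21 and 0 TPM after Amuc_0904. None reached the filter, so the cluster holds no tested gene besides the members.

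Among the 12 protein-coding neighbours within 500 kb of the cluster, 5 were tested with limma over all 14333 genes, and 0 fell and 0 rose at an adjusted p under 0.05. At a raw p, one not adjusted for multiple tests, under 0.05, 1 was lower and 2 were higher. Over all tested genes 0.167% fell and 0.0698% rose at the adjusted threshold, and 5.87% were lower and 9.95% higher by the raw p. *MTHFD2L*, a mitochondrial folate enzyme gene that begins 14881 bases beyond *CXCL2*, was at 10.9 ± 0.957 TPM in the controls and 11.1 ± 0.290 TPM after Amuc_0904 (SD, n = 3; limma adjusted p = 0.90). *ANKRD17*, on the other side, was at 20.0 ± 0.0917 and 19.1 ± 1.66 TPM (limma adjusted p = 0.674). *RASSF6*, the tested neighbour nearest to *CXCL8*, was at 2.59 ± 0.252 and 1.97 ± 0.153 TPM, a log2(TPM + 1) difference of −0.27 (limma adjusted p = 0.310).

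The remaining tested neighbours were the EGF receptor ligands epiregulin and amphiregulin, and their levels lay in the opposite direction to the chemokines. *EREG* was at 13.76, 13.90 and 12.79 TPM in the controls and 17.25, 20.11 and 22.33 TPM after Amuc_0904. *AREG* was at 43.06, 44.48 and 42.39 TPM in the controls and 49.83, 53.04 and 54.33 TPM after Amuc_0904. Both were higher in all treated libraries than in all controls, as were 13.4% of tested genes, and neither passed by limma (adjusted p = 0.150 and 0.183). Without A904 replicate 1 both passed, at limma adjusted p = 0.0041 and 0.0072, in a fit where 9.34% of genes rose.

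**Figure D3:**
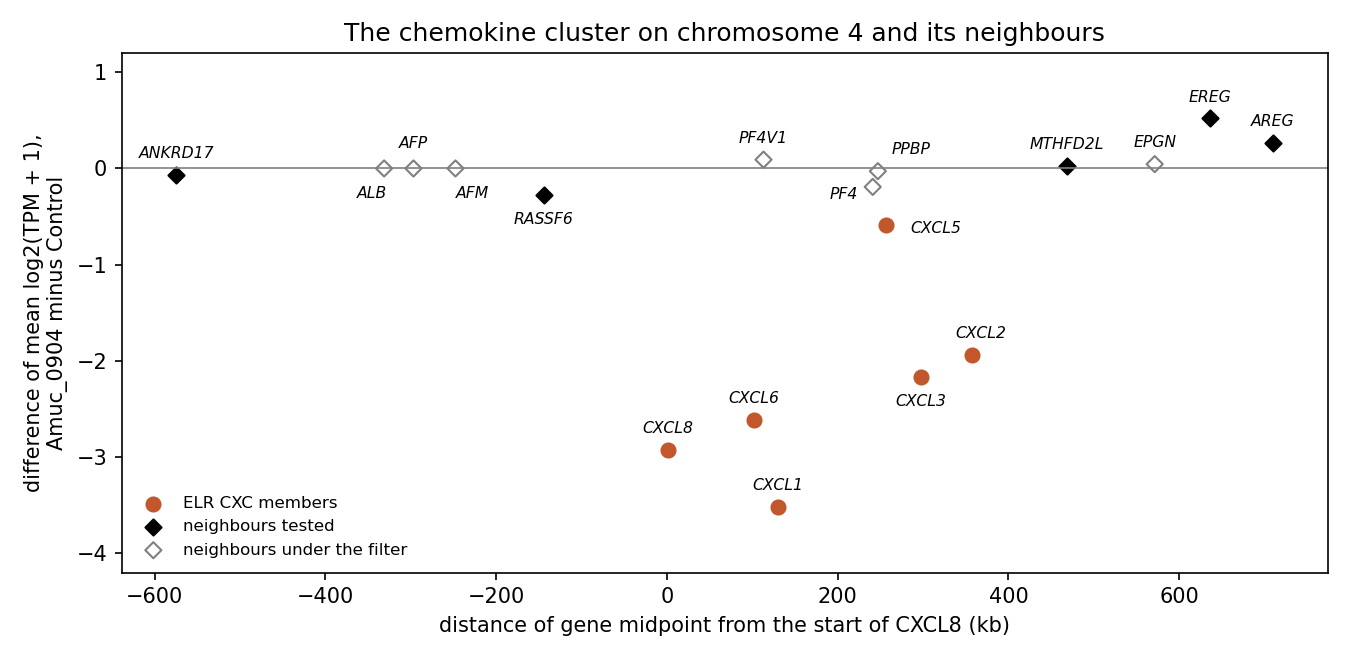
Difference of mean log2(TPM + 1), Amuc_0904 minus Control, against distance of the gene midpoint from the start of *CXCL8* in kb, for the members (circles), tested neighbours (filled diamonds) and neighbours under the filter (open diamonds). The members lie between −3.51 and −0.58, while the tested neighbours lie between −0.27 and 0.52.

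The pathway around the chemokines was followed in 8 lists of 78 genes, of which 57 were tested. Of these 57, 2 fell, *CXCL10* and *ZC3H12A*, and 0 rose by limma at an adjusted p under 0.05, and 11 were lower and 8 higher by a raw p under 0.05, beside 5.87% and 9.95% of all tested genes. Over all tested genes the median log2(TPM + 1) difference was 0.001.

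The receptors of the members were not detected to any extent in HT−29 cells. *CXCR1*, *CXCR2* and the decoy receptor *ACKR1* together summed to at most 0.04 TPM in any library, and *ACKR1* was listed at 0 in every one. The ligands were thus measured in cells with next to no transcript of their receptors.

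CXC chemokines without the ELR motif lack the signature for CXCR1 and CXCR2 and act through other receptors. Of 10 in the list, 4 were tested, and 1 fell and 0 rose by limma (0.167% and 0.0698% of all tested genes). By the raw p 1 was lower and 0 were higher (5.87% and 9.95% of all tested genes). *CXCL10*, an interferon-induced CXCR3 ligand that also lies on chromosome 4 outside this cluster's neighbourhood, was at 36.04, 36.01 and 30.86 TPM in the controls and 10.59, 11.45 and 14.73 TPM after Amuc_0904. Its log2(TPM + 1) difference was −1.42 (standard error 0.12, limma adjusted p = 0.0074). That was smaller than in the 5 tested members, which were chosen as lower in this contrast. *CXCL10* passed in 11 of 13 alternative fits, with a limma adjusted p of up to 0.0627 when a control was left out. *CXCL11*, a ligand of the same receptor CXCR3, was at 37.57, 42.25 and 38.43 TPM in the controls and 47.82, 35.58 and 43.27 TPM after Amuc_0904, with overlapping groups (limma adjusted p = 0.723). *CXCL16*, a membrane-bound chemokine, was at mean levels of 16.5 and 12.8 TPM (limma adjusted p = 0.375).

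The receptors and adaptors through which IL-1, IL-17, TNF and microbial products induce these chemokines gave 0 falls and 0 rises by limma among 14 tested of 17, with 0 lower and 3 higher by a raw p under 0.05 (5.87% and 9.95% of all tested genes). The median difference of the list was 0.06. *IRAK1*, a kinase of the IL-1 receptor and Toll-like receptor pathway, had means of 163 TPM in the controls and 209 TPM after Amuc_0904 (limma adjusted p = 0.325). *LTBR*, the lymphotoxin receptor, differed by −0.14 on the log2(TPM + 1) scale (limma adjusted p = 0.414). Without A904 replicate 1 these genes were at limma adjusted p = 0.0032 and 0.0148.

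Of the 15 NF-κB subunits, kinases and inhibitors, all were tested and 0 fell and 0 rose by limma, with 7 lower and 2 higher by a raw p under 0.05 (5.87% and 9.95% of all tested genes). The groups did not overlap for 8 lower and 3 higher genes, beside 7.59% and 13.4% of all tested genes, and the list's median difference was −0.13. *RELA*, the main transactivating subunit, was at means of 43.6 and 41.5 TPM (log2 difference −0.07, limma adjusted p = 0.587). *TNIP1*, an inhibitor that works with A20, was at 108 ± 2.80 and 85.6 ± 3.86 TPM (SD, n = 3), a log2 difference of −0.33 (limma adjusted p = 0.0993). The inhibitor *NFKBIA*, itself an NF-κB target and named after its values were seen, differed by −0.46 (limma adjusted p = 0.111). Without A904 replicate 1, 7 of the 15 genes fell and 1 rose, in a fit where 8.85% of all tested genes fell and 9.34% rose. All of these differences were smaller than those of the 5 tested members. The members were chosen as lower in this contrast, so nothing is read from that, and NF-κB activity was not measured.

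Other transcription factors known from these promoters gave 0 falls and 0 rises by limma among 12 tested genes, with 2 lower and 2 higher by a raw p under 0.05 (5.87% and 9.95% of all tested genes). *ELF3*, an epithelial ETS factor, was at means of 170 and 150 TPM (limma adjusted p = 0.249). *CEBPB*, a C/EBP factor of the *CXCL8* promoter, was at means of 50.4 and 44.9 TPM (limma adjusted p = 0.248). Without A904 replicate 1 both passed, at limma adjusted p = 0.0060 and 0.0411.

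Among 10 regulators of chemokine mRNA stability, all tested, 1 fell and 0 rose by limma (0.167% and 0.0698% of all tested genes). By the raw p 1 was lower and 1 higher (5.87% and 9.95% of all tested genes). *ZC3H12A*, the RNase regnase-1 that degrades inflammatory mRNAs and is itself induced by NF-κB, was at 13.59, 13.78 and 13.63 TPM in the controls and 8.34, 8.42 and 7.15 TPM after Amuc_0904. Its log2(TPM + 1) difference was −0.71 (standard error 0.08, limma adjusted p = 0.0245). It passed in 6 of 13 alternative fits, with limma adjusted p up to 0.162. *HNRNPD*, the AU-rich element binding protein AUF1, was at means of 496 and 560 TPM (limma adjusted p = 0.261, and 0.0106 without A904 replicate 1). *TIAL1*, another AU-rich element binding protein, differed by 0.02 on the log2 scale (limma adjusted p = 0.921), and the sign turned in some alternatives.

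Of 10 other epithelial cytokines that act on neutrophils or their precursors, 2 passed the filter, and 0 fell and 0 rose by limma, with 0 at a raw p under 0.05. *IL18* was at means of 12.1 and 10.9 TPM (limma adjusted p = 0.395) and *CSF1*, a macrophage growth factor, at 1.93 and 1.44 TPM (limma adjusted p = 0.337). Under the filter, *IL1B* was at 0.33, 0.31 and 0.54 TPM in the controls and 0, 0.04 and 0 TPM after Amuc_0904. *TNF* was at 0.08, 0.29 and 0.09 against 0.07, 0 and 0.04 TPM. Neither gene overlapped between groups, as was so for 5.47% of genes above 0 in any library. *CSF2*, *IL1A*, *IL6*, *IL17C* and *IL36G* also had lower means, with overlapping groups. None of these was tested. *CSF3*, the growth factor of neutrophils, was listed at 0 in every library. The ELR chemokines, at 110.76 to 117.06 TPM in sum, were thus far above the 15.77 to 16.53 TPM to which this whole list summed in the controls.

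The letters shared by the member promoters were also looked up in the promoters of the other tested protein-coding genes, a look chosen after the data were seen. A promoter was matched for 9545 of 11725 such genes (81.4%). GGAATTTCC was present in 54, of which 2 fell and 0 rose by limma (3.70% fell), with a median log2(TPM + 1) difference of −0.03. Of the 9491 without it, 11 fell and 2 rose (0.116% fell), with a median of 0.01. The share with the letters rests on 2 genes, *CXCL10* and *ICAM1*, the adhesion molecule that neutrophils bind on cells. The letters came from promoters of genes chosen as lower here, so nothing is read from the difference between the shares. Whether the letters bear on the falls was not tested. *ICAM1* was at 9.21, 9.58 and 8.31 TPM in the controls and 4.79, 3.35 and 3.60 TPM after Amuc_0904, a log2(TPM + 1) difference of −1.04 (limma adjusted p = 0.0330, passed in 6 of 13 alternative fits, up to 0.189).

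Levels of the members moved closely together over the 6 libraries, with Pearson correlations of log2(TPM + 1) between 0.936 and 0.992 for pairs of members. These values describe 6 libraries in 2 separate groups and mostly reflect the gap between the groups. The genes outside the family with the most similar pattern to the mean of the members, among 43 genes with an absolute log2 difference of at least 1, were *PI3* (r = 0.998), *CCL20* (r = 0.996), *CEACAM7* (r = 0.996), *SAA1* (r = 0.994) and *SAA2* (r = 0.992). *PI3*, which encodes elafin, an inhibitor of neutrophil elastase, was at 63.12, 67.34 and 68.22 TPM in the controls and 4.04, 7.04 and 7.74 TPM after Amuc_0904. *CCL20*, a chemokine for CCR6-bearing lymphocytes and dendritic cells, differed by −4.32 on the log2(TPM + 1) scale. *CEACAM7*, a colonic epithelial adhesion molecule, was at 8.64, 9.16 and 7.28 TPM in the controls and 1.33, 1.94 and 1.87 TPM after Amuc_0904. *SAA1* and *SAA2*, the acute-phase serum amyloid A genes, were listed at 0 in each A904 library. These genes were picked for their likeness in this contrast, so no test is given for them.

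The libraries carried the markers of the labelled epithelium, some at low levels, and most markers of other cells did not pass the filter. The lowest epithelial markers were *CDX2*, at 0.46 to 1.43 TPM in the controls and 0.52 to 1.71 TPM after Amuc_0904, and *CEACAM5*. *CEACAM5* was at 1.18 to 1.64 TPM in the controls and 1.61 to 3.79 TPM after Amuc_0904. All 9 epithelial markers were tested and 0 fell and 0 rose by limma, with 0 lower and 2 higher by a raw p under 0.05 (5.87% and 9.95% of all tested genes), and their sums were 6358 to 6391 TPM in the controls and 6329 to 7119 TPM after Amuc_0904. Without A904 replicate 1, 2 of the 9 fell and 4 rose, in a fit where 8.85% of all tested genes fell and 9.34% rose. The 6 leukocyte markers, 3 of them tested with 0 falls (1 without A904 replicate 1) and 0 rises by limma and 1 lower by the raw p, summed to 2581 to 2627 TPM in the controls and 2479 to 2701 TPM after Amuc_0904, nearly all of it *LYZ*, the lysozyme gene that gut epithelium also uses. *PTPRC*, the leukocyte common antigen, was at most at 0.02 TPM and *CD3E* was listed at 0 throughout. *ITGAM* passed the filter, at 0.69 to 1.95 TPM in the controls and 0.84 to 1.49 TPM after Amuc_0904. The 8 neutrophil markers summed to 0.73 to 1.74 TPM in the controls and 0.02 to 0.19 TPM after Amuc_0904. In the controls nearly all of it was *S100A9*, which epithelial cells also make. *S100A9* was at 1.59, 0.69 and 0.84 TPM in the controls and 0, 0.16 and 0 TPM after Amuc_0904, while *S100A8* and *ELANE* were listed at 0. None of the neutrophil markers passed the filter. *CD14* was at 4.65 to 4.76 TPM in the controls and 1.89 to 2.85 TPM after Amuc_0904 (limma adjusted p = 0.150), and the part of such cells or genes in the chemokine difference was not tested. Fibroblast and endothelial markers summed to 1.57 to 2.50 TPM and 1.99 to 2.72 TPM in the same order, with *COL1A2* and *CDH5* listed at 0. Nearly all of it was *COL1A1*, at 0.60 to 1.87 TPM in the controls, and *PECAM1*, at 0.62 to 1.51 TPM, which passed the filter.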

How the data were processed

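RNA-seq was measured in 6 libraries of HT−29 cells, 3 per group. The authors trimmed the reads and made the deposited TPM values per gene with HISAT2 and StringTie. RSEM and edgeR are also named in the submitters' processing notes, without versions. Those notes name a mouse genome build although the gene identifiers are human, so the human build is not given in the sources used here. No counts were used, so no count test was run and depth is unknown. The table held 63241 genes, and 25 lines of spilled annotation text were left out.

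The 14333 genes reaching 1 TPM in 3 or more libraries entered limma 3.58.1 (R 4.3.3) on the log2(TPM + 1) scale, with a mean-variance trend, robust empirical Bayes, group as the only term and Benjamini-Hochberg adjustment over all tested genes at 0.05. The procedure was tested on simulated data. Members and gene lists were chosen with earlier results of these data known. Named were all members, tested neighbours, list genes past the threshold, the 2 most abundant tested genes of each list and the 5 genes most like the members, plus *NFKBIA* and *ICAM1*, chosen after their values were seen. Alternatives changed the pseudocount (0.1), filter, scaling, library weights, replicate block and libraries included. Motifs were searched with Python 3.11.15.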

Additional observations from a re-analysis of the deposited data

How the results depend on the processing

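Every member was lower after Amuc_0904 under each alternative. With a pseudocount of 0.1 the log2 differences were −3.88 for *CXCL1*, −2.94 for *CXCL2*, −2.78 for *CXCL3*, −1.97 for *CXCL5* and −3.31 for *CXCL6*, larger because the added value weighs less on low levels. Leaving out each library in turn gave −3.68 to −3.24 for *CXCL1*, −2.04 to −1.85 for *CXCL2*, −2.35 to −1.98 for *CXCL3*, −0.64 to −0.53 for *CXCL5*, −2.71 to −2.47 for *CXCL6*, −3.20 to −2.56 for *CXCL8* and 8.52 to 11.7 for the ratio of the summed level. *CXCL5*, under the filter, had no value with library weights, a block or another scaling.

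Counts of genes depended on A904 replicate 1 and on the library weights. The 24 genes that fell and 10 that rose became 10 to 1269 and 2 to 1338 with a library left out, the highest without A904 replicate 1. They became 1056 and 1315 with library weights and 15 and 3 with no filter. The count that rose was 6 with median-of-ratios scaling. Pathway genes numbered 0 to 13 falls and 0 to 5 rises with a library left out, 13 and 5 with library weights, and 1 fall with no filter. Neighbours that rose numbered 0 to 2 with a library left out and 2 with library weights. The cause was not tested.

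With the replicate number as a block, 16 genes fell and 5 rose, and 1 pathway gene fell, *CXCL10*. Deviations of libraries with the same number correlated at 0.0458, −0.0392 and −0.0047, so no shared deviation was seen. This cannot settle whether the samples were paired, which the labels do not say.

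Signs turned for genes near 0. *TIAL1* was at −0.027 with library weights, −0.035 with quantile normalization, −0.0062 without the mitochondrial genome and −0.038 to 0.052 with a library left out. *CXCL11* was at −0.0045 without A904 replicate 1 and up to 0.20, and *MTHFD2L* at −0.030 without Control replicate 3 and up to 0.086. Depth is unknown, so the counting error of low levels such as those of *CXCL5* could not be given.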
